A study of Mus musculus with 8 samples.

Results

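The transcripts described here encode the cyclins, kinases and kinase inhibitors that act in G1, the growth phase between cell division and DNA synthesis. The members were the rows of the deposited normalized table whose gene symbol was *Ccnd2*, *Ccnd3*, *Ccne1*, *Ccne2*, *Cdk2*, *Cdk4*, *Cdk6*, *Cdkn1a*, *Cdkn1b* or *Cdkn2c*, and all 10 were found among the 24303 genes of the table. The symbols were listed by name and not by measured values, but with earlier results of these data known. In G1, mitogen and antigen receptor signals induce D-type cyclins, which bind CDK4 and CDK6 and start the phosphorylation of the retinoblastoma protein. E-type cyclins then bind CDK2 and carry the cell into S phase, and their genes are themselves targets of the E2F factors that the retinoblastoma protein holds in check. The inhibitors p21 and p27 bind cyclin-CDK complexes, and p18 belongs to the INK4 family that binds CDK4 and CDK6 alone. In T cells, *Ccnd2*, *Ccnd3* and *Cdk6* are the usual D-type cyclins and kinase, p27 is abundant in resting cells, and p18 is known to restrain antigen receptor-driven division.

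P14 cells are mouse CD8+ T cells that carry a transgenic T cell receptor for GP33, a peptide of lymphocytic choriomeningitis virus, so each library holds cells with 1 shared receptor specificity. Naive CD8+ T cells were isolated from the spleens of adult male or female P14 mice on the C57BL/6 background and were activated in vitro until day 2 on plates that carried anti-CD3 and anti-CD28 antibodies, and poly(A)-selected RNA of 4 conditions of 2 libraries each was sequenced. Effector cells were harvested on day 7, the treatment labels do not describe their peptide stimulation, and the study names them as antigen-stimulated. Acute-2d cells received no GP33 and were rested to day 19, Acute-7d cells received GP33 until day 7 and were rested to day 19, and T_Dysf cells received GP33 to day 19 with TGF-β1 from day 7. The series design calls the 2 libraries of a condition biological replicates, the labels do not say which mice gave which library, and p-values measure the spread between these libraries. T_Dysf differs from Acute-7d in later antigen and in TGF-β1 together, and their parts cannot be told apart.

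Values are normalized counts, which the authors scaled by the DESeq2 median-ratio method. The libraries held 19382147 to 24856195 reads by the step between low values, so 3 reads correspond to 2.59 to 3.35 normalized counts and every member lay far above that in every library. Summed normalized counts of 6 CD8+ T cell markers were 118258 and 122591 in T_Dysf and 54828 to 70137 in the other 6 libraries, so the labelled cell type was present throughout, and their part in the results below was not tested. Of markers of other cells, *Cd4*, *Ms4a1* and *Cd79a* reached 13.0, 13.0 and 21.4 normalized counts and *Lyz2* of myeloid cells 438, at 187 or more in every library. *Csf1r*, also of myeloid cells, was called higher in T_Dysf than in Effector (means 19.51 and 6.56, adjusted p 0.0406). It was called lower in Effector than in Acute-2d (means 6.56 and 19.49, adjusted p 0.0410). *Foxp3*, of regulatory T cells, reached 49.5 and was called lower in Effector than in Acute-7d (means 4.44 and 47.3, adjusted p 0.0256). *Cd4* went the other way in that comparison, with means of 7.89 in Effector and 1.06 in Acute-7d, and was not called (adjusted p 0.130). *Ncr1*, of NK cells, was 30.1 and 105.01 in Acute-7d and 2.59 and 1.78 in T_Dysf, where it was called lower (adjusted p 0.0343), and the part of these markers in the results of the same comparisons was not tested. Both Effector libraries and replicate 1 of Acute-7d carry the prefix RESUB in their labels. *Xist* was 53.5 to 115 normalized counts in these 3 libraries and 21871 to 30427 in the other 5, and 4 Y-linked genes summed to 4642 to 5581 and 0 to 13.8, so the mouse sex of the RNA goes with the prefix. Both Effector libraries share the prefix, the sex and a day of harvest of their own, so the day cannot be told apart from the condition, and the prefix and sex, which go together, can be separated from it only through the 2 libraries of Acute-7d. In the bulk libraries, a change in the share of dividing cells and a change in RNA per cell cannot be told apart, nor can fewer cells of a type and less RNA per cell.

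A gene was called at a fold change of at least 2 with an adjusted p under 0.05 in limma on log2(normalized count + 1), with Benjamini-Hochberg adjustment over all 24303 genes. Unless another fit, setting or test is named, adjusted p-values below are from this fit of all 8 libraries. The SE is printed with some of the log2 differences. Against Acute-7d, *Ccnd2* was lower in T_Dysf and *Ccne1* and *Cdk2* were higher. Against Acute-2d, *Ccnd2* and *Cdkn1b* were lower in T_Dysf. Against Effector, *Ccnd2* and *Ccne1* were lower in T_Dysf. In T_Dysf against Acute-7d, 3 of 10 members were called, where 5.57% of all genes were called, 2.54% higher and 3.03% lower. In T_Dysf against Acute-2d, 2 members were called, where 7.35% of all genes were called, 3.14% higher and 4.21% lower. In T_Dysf against Effector, 2 were called by both criteria, where 9.22% of all genes were called, 4.47% higher and 4.75% lower, and 4 by adjusted p alone, where 15.6% of all genes passed. Effector had 4 members called against Acute-7d, where 8.06% of all genes were called, 4.18% higher and 3.88% lower, and 3 against Acute-2d, where 8.78% were called, 4.31% higher and 4.48% lower. In Acute-7d against Acute-2d, limma called 0 members, where 0.169% of all genes were called, 0.0782% higher and 0.0905% lower, and 0 members had an unadjusted p under 0.05, where 7.31% of all genes did. Both libraries of T_Dysf lay on 1 side of both Acute-7d libraries for 9 members, where this held for 54.8% of all genes. The count was 9 against Acute-2d, where it held for 54.3%, and 8 against Effector, where it held for 56.4%. For Effector it was 7 members against Acute-7d, where it held for 54.9%, and 8 against Acute-2d, where it held for 54.2%. Acute-7d and Acute-2d stood apart in this way for 2 members, where it held for 32.1% of all genes. The comparisons share libraries, so their counts are given side by side and are not independent.

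**Figure D1:**
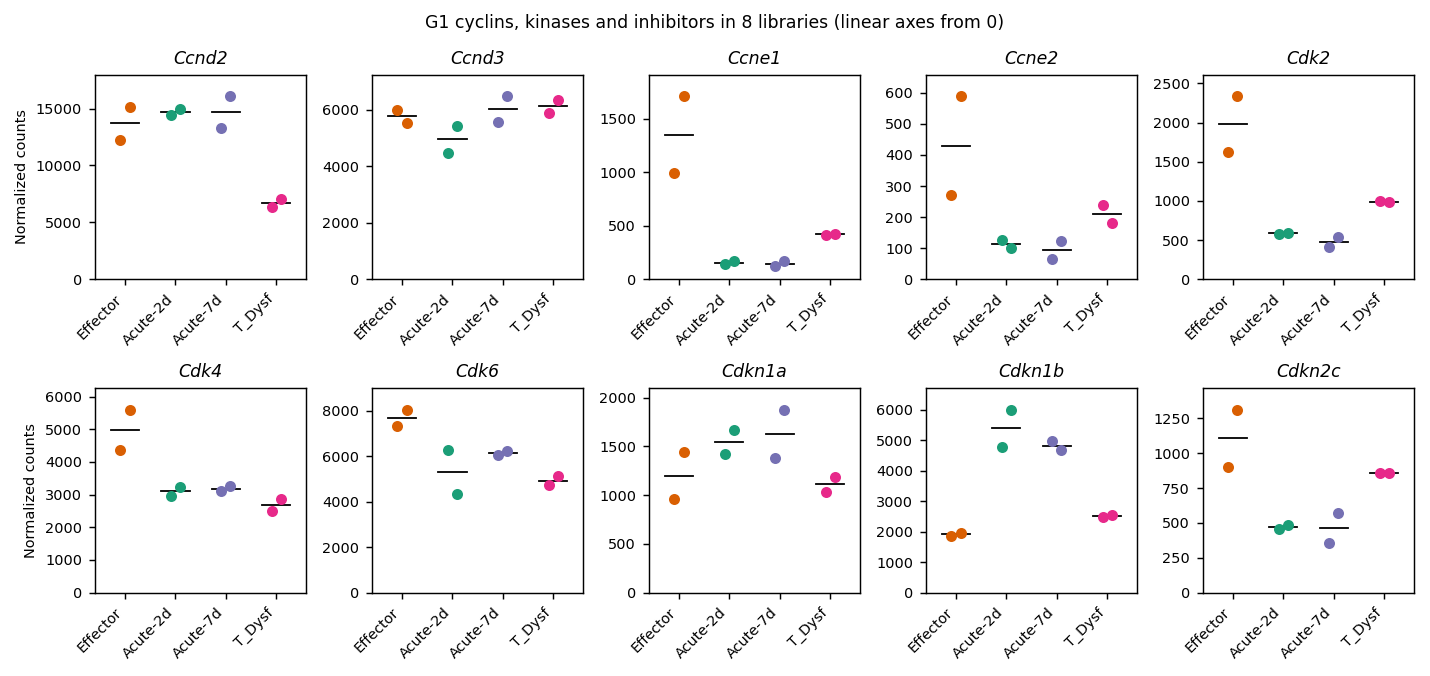
Normalized counts of the 10 members on linear axes from 0, 1 panel a gene, with 1 point for each of the 8 libraries by condition and a bar at the condition mean. *Ccnd2* is lowest in both T_Dysf libraries, at 6343 and 7093, and *Ccne1* is highest in both Effector libraries, at 992 and 1709.

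*Ccnd2*, the gene of cyclin D2, lies at chr6:127125162-127152193 on the minus strand of GRCm38, the build also named mm10. Its normalized counts were 12280.1 and 15178 in Effector, 14469 and 15002 in Acute-2d, 13289.9 and 16063 in Acute-7d, and 6343 and 7093 in T_Dysf. Both T_Dysf libraries lay below all 6 others, which overlapped each other. The condition means were 6718 ± 530.2 in T_Dysf and 14676 ± 1961 in Acute-7d (SD, n = 2). *Ccnd2* was 2.18-fold lower in T_Dysf than in Acute-7d, with a log2 difference of -1.12 (SE 0.15) and an adjusted p of 0.01997. It was also lower than in Acute-2d (log2 difference -1.14, adjusted p 0.0152) and Effector (log2 difference -1.03, adjusted p 0.0175). Acute-7d and Acute-2d differed by -0.01 on the log2 scale, with a 95% interval from -0.41 to 0.38, and Effector and Acute-7d by -0.10, with an interval from -0.49 to 0.30.

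*Ccnd3*, the gene of cyclin D3, lies at chr17:47505051-47599691 on the plus strand. Normalized counts of *Ccnd3* were 5996 and 5546 in Effector, 4492 and 5426 in Acute-2d, 5588 and 6478 in Acute-7d, and 5897 and 6365 in T_Dysf. T_Dysf overlapped Acute-7d and Effector, and the member was not called in any comparison. The T_Dysf minus Acute-7d difference was 0.03 on the log2 scale, with a 95% interval from -0.30 to 0.36 and an adjusted p of 0.995. An opposite-strand gene, *Bysl*, shares exon bases with *Ccnd3* at a mean of 838 normalized counts, against 5724 for *Ccnd3*, and the sources used here do not say whether counting used strand. A processed pseudogene, *Ccnd3-ps*, matched *Ccnd3* over 881 bases at 96.3% identity and held 11.7 to 54.5 normalized counts.

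The ratio of *Ccnd2* to *Ccnd3* within a library does not depend on the scaling of that library. It was 2.05 and 2.74 in Effector, 3.22 and 2.77 in Acute-2d, 2.38 and 2.48 in Acute-7d, and 1.08 and 1.11 in T_Dysf. Both T_Dysf ratios lay below all 6 others. An exact permutation test over every way to split 8 libraries into 4 pairs, in which the smallest p is 0.00952, gave p = 0.0571, and 0.0762 after adjustment over the 4 ratios tested. Per kb of the longest RefSeq-linked transcript, with 6330 bases for *Ccnd2* and 2113 for *Ccnd3*, the levels in normalized counts per kb were 1061 for *Ccnd2* and 2902 for *Ccnd3* in T_Dysf. In Acute-7d they were 2319 for *Ccnd2* and 2855 for *Ccnd3*.

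*Cdk4*, a kinase partner of the D-type cyclins, lies at chr10:127063534-127067920 on the plus strand. The libraries held 4371 and 5597 normalized counts in Effector, 2958 and 3248 in Acute-2d, 3102 and 3269 in Acute-7d, and 2494 and 2875 in T_Dysf. Both Effector libraries lay above all 6 others. T_Dysf was lower than Effector by an adjusted p of 0.0219 with a log2 difference of -0.89 (SE 0.14), a 1.85-fold difference that did not reach the fold of 2. Against Acute-7d, the T_Dysf log2 difference was -0.25, with an adjusted p of 0.356. The opposite-strand gene *Tspan31* shares a stretch of 641 exon bases with *Cdk4* and had a mean of 2008 normalized counts against 3489 for *Cdk4*. With strand use not stated, the level of *Cdk4* is therefore uncertain.

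*Cdk6*, the other kinase partner of the D-type cyclins, lies at chr5:3341485-3531008 on the plus strand. Its normalized counts were 7348 and 8041 in Effector, 6257 and 4346 in Acute-2d, 6060.4 and 6244 in Acute-7d, and 4722 and 5126 in T_Dysf. Effector was highest, and Acute-2d spanned the T_Dysf and Acute-7d values. No comparison called *Cdk6*, and the smallest adjusted p was 0.0820, for a T_Dysf minus Effector log2 difference of -0.64. The within-library ratio of *Cdk6* to *Cdk4* ran from 1.34 to 2.12 over the 8 libraries, both ends in Acute-2d, with p = 0.619 in the exact permutation test. Per kb, *Cdk4* at 1308 normalized counts per kb was above *Cdk6* at 427 in T_Dysf, and the transcript of *Cdk6* is taken as 11525 bases long. The limit from the *Tspan31* overlap applies to *Cdk4* in this ranking and in the ratio.

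The 300-base promoter windows of 4 members are shown, from 250 bases before to 50 after the RefSeq start on GRCm38.p6. Of these, *Cdk2*, *Ccne1* and *Cdkn1b* were called in at least 1 comparison and *Cdk4* holds the most motif matches. *Cdkn2c* was also called, in Effector against Acute-7d, and its windows are not printed. *Ccnd2*, which was called too, and *Ccne2* had no window in the set used. Capitals mark matches to 3 motifs searched on both strands: an E2F motif (TTTCCCGC, TTTGGCGC, TTTCGCGC or TTTGCCGC), an E-box (CACGTG) and a FOXO motif (GTAAACA). The coordinates are chr10:128705002-128705301 on the minus strand for *Cdk2*, chr7:38107441-38107740 on the minus strand for *Ccne1*, chr10:127063285-127063584 on the plus strand for *Cdk4* and chr6:134920151-134920450 on the plus strand for *Cdkn1b*.
Cdk2: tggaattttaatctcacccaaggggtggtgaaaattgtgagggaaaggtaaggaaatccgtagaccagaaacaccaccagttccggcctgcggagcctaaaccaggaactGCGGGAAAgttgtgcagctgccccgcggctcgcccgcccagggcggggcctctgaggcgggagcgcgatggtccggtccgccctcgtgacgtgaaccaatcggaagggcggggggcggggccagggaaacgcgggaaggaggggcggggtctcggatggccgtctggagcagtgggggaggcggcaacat
Ccne1: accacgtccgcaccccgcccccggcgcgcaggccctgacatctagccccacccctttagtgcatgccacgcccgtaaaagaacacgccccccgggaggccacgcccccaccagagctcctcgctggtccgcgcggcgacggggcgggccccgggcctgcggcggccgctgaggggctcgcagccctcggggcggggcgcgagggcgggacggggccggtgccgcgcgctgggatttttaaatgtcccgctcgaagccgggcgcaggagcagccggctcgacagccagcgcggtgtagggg
Cdk4: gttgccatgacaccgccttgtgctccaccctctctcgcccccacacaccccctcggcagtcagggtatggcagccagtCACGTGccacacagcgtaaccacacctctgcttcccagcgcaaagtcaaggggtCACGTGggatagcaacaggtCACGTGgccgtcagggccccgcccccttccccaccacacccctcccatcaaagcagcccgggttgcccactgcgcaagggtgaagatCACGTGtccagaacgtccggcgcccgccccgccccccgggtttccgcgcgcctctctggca
Cdkn1b: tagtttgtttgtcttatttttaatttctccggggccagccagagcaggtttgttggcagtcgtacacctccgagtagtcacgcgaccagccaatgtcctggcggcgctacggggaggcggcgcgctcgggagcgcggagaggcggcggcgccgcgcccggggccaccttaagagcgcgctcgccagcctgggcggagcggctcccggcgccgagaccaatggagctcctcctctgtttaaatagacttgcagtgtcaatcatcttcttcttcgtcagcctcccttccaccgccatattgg
The *Cdk2* window held an E2F match on the reverse strand at position -140 from the start, and the *Cdk4* window held E-boxes at -172, -118, -98 and -11. Neither the *Ccne1* nor the *Cdkn1b* window held any of these letters. Of 11 windows for 8 members, 1 held an E2F match, 3 an E-box and 1 a FOXO match, where 2.26%, 7.15% and 3.65% of 32851 promoter windows did. The other matches were an E-box in *Cdk6* and in the window 2 of *Cdkn2c* and a FOXO match in the window 1 of *Ccnd3*. A match is a run of letters and not a measured binding site.

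*Ccne1*, the gene of cyclin E1, lies at chr7:38097984-38107534 on the minus strand. Normalized counts of *Ccne1* were 992 and 1709 in Effector, 142 and 168 in Acute-2d, 122 and 171 in Acute-7d, and 413 and 427 in T_Dysf. The order was Effector, T_Dysf and then both rested conditions, with no overlap between these 3 levels, while Acute-2d and Acute-7d overlapped. T_Dysf was 2.90-fold higher than Acute-7d, with means of 419.9 ± 10.03 and 146 ± 34.7 (SD, n = 2), a log2 difference of 1.54 (SE 0.31) and an adjusted p of 0.0492. Against Acute-2d the T_Dysf log2 difference was 1.43, and its adjusted p of 0.05005 did not pass, although 6 of 8 alternative settings called it, with adjusted p-values of 0.0102 to 0.0487, and the term for the RESUB prefix did not (adjusted p 0.0770). T_Dysf was 3.10-fold lower than Effector (log2 difference -1.63, adjusted p 0.0312). Effector was 8.99-fold higher than Acute-7d (log2 difference 3.17, adjusted p 0.0125) and 8.37-fold higher than Acute-2d (adjusted p 0.0112).

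*Ccne2*, the gene of cyclin E2, lies at chr4:11191351-11204779 on the plus strand. The libraries held 271 and 588 normalized counts in Effector, 128 and 101 in Acute-2d, 66.1 and 122 in Acute-7d, and 239 and 182 in T_Dysf. The conditions stood in the same order as for *Ccne1*, but the Effector libraries differed 2.17-fold from each other, the widest replicate gap of any member. No comparison called *Ccne2*. The T_Dysf minus Acute-7d log2 difference was 1.20, with a 95% interval from -0.06 to 2.47 and an adjusted p of 0.207, and the Effector minus Acute-7d difference was 2.14 with an adjusted p of 0.0501. *Ints8*, on the opposite strand, shares exon bases with *Ccne2* and had a mean of 745 normalized counts against 212 for *Ccne2*, so with strand use not stated the level of *Ccne2* is uncertain.

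The within-library ratio of *Ccne1* to *Ccne2* was 3.66 and 2.91 in Effector, 1.11 and 1.67 in Acute-2d, 1.84 and 1.40 in Acute-7d, and 1.73 and 2.35 in T_Dysf. Both Effector ratios lay above all others, both T_Dysf ratios lay above both of Acute-2d, and Acute-7d overlapped T_Dysf and Acute-2d. The exact permutation test gave p = 0.0571, and 0.0762 after adjustment over the 4 ratios. Per kb of transcript, *Ccne1* was 675 and *Ccne2* 143 normalized counts per kb in Effector, and 210.0 and 70.0 in T_Dysf.

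*Cdk2*, the kinase partner of the E-type cyclins, lies at chr10:128697939-128705031 on the minus strand. Its normalized counts were 1625 and 2333 in Effector, 576 and 595 in Acute-2d, 417 and 543 in Acute-7d, and 993 and 992 in T_Dysf. The order was Effector, T_Dysf, Acute-2d and Acute-7d, with no overlap between neighbours. *Cdk2* was 2.08-fold higher in T_Dysf than in Acute-7d (log2 difference 1.06, SE 0.21, adjusted p 0.0475). Only 4 of 8 alternative settings kept this call, and it ended with quantile normalization, where the log2 difference of 0.97 fell short of the fold of 2, with the replicate block (adjusted p 0.0528), in the fit of the 2 conditions alone (adjusted p 0.0799) and with the RESUB term. Against Acute-2d the T_Dysf log2 difference was 0.76 with an adjusted p of 0.0897. T_Dysf was below Effector by 0.97 on the log2 scale with an adjusted p of 0.0428, a 1.96-fold difference just under the fold of 2. Effector was 4.08-fold higher than Acute-7d (adjusted p 0.0132) and 3.32-fold higher than Acute-2d (adjusted p 0.0143). Acute-7d and Acute-2d differed by -0.30 on the log2 scale, with a 95% interval from -0.84 to 0.24.

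**Figure D2:**
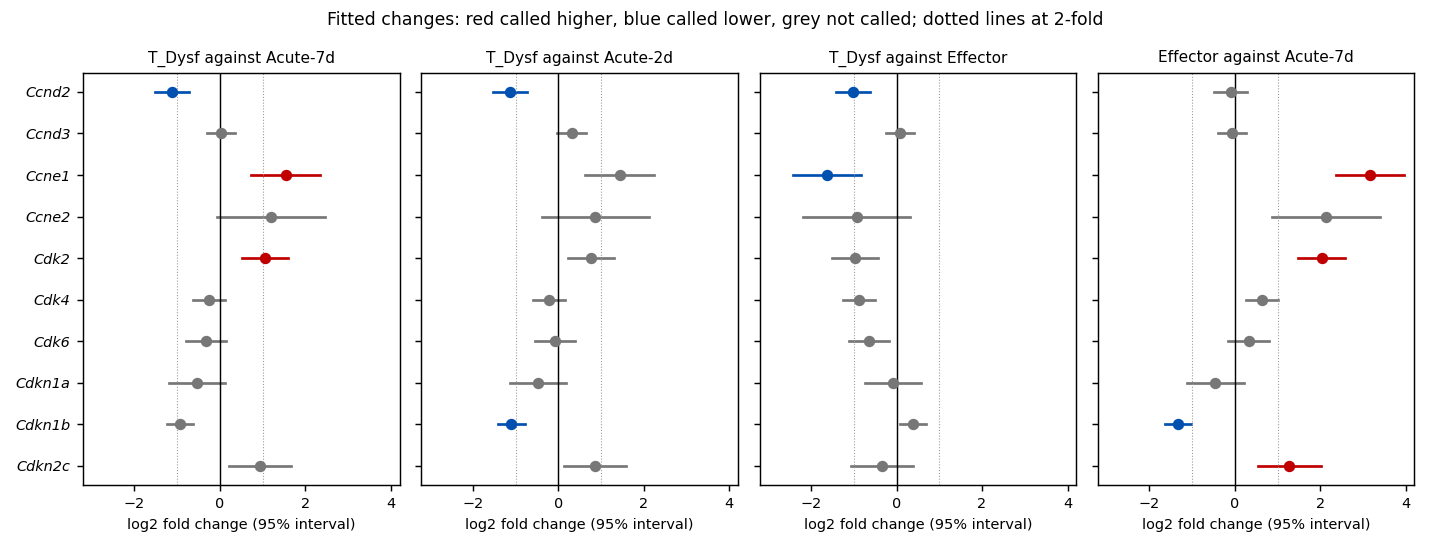
Log2 differences of the 10 members in 4 of the comparisons, 1 panel each, with 95% intervals from limma as horizontal bars. Red marks members called higher, blue members called lower and grey those not called, and dotted lines stand at a fold of 2. The T_Dysf against Acute-7d points run from -1.12 for *Ccnd2* to 1.54 for *Ccne1*, and *Ccnd2* is blue in all 3 T_Dysf panels.

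The 10 genes of cycling cells listed for comparison stood in a like order. *Mki67*, a proliferation marker, was 16144 and 28620.2 normalized counts in Effector, 3050.0 and 1817 in Acute-2d, 1096 and 3371 in Acute-7d, and 6848 and 6734 in T_Dysf. All 10 of these genes were higher in T_Dysf than in Acute-7d with no overlap, at a median log2 difference of 1.80. However, limma called 0 of them, where 5.57% of all genes were called. The *Mki67* difference of 1.82 had an adjusted p of 0.156. In Effector against Acute-7d all 10 were called higher, at a median log2 difference of 3.13, and in Effector against Acute-2d 8 were. The shares of all genes called higher there were 4.18% and 4.31%. In T_Dysf against Effector 1 gene was called, *Mcm6*, a subunit of the replicative helicase, which was lower by a log2 difference of -1.29 (adjusted p 0.0344). Of all genes, 9.22% were called in that comparison. Groups with no overlap were found for 54.8% of all genes in T_Dysf against Acute-7d. The levels of these genes went with those of *Ccne1* and *Cdk2*, and their part in those results was not tested.

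*Cdkn1b*, the gene of p27, lies at chr6:134920401-134925513 on the plus strand. Normalized counts of *Cdkn1b* were 1868 and 1965 in Effector, 4774 and 6000.1 in Acute-2d, 4981 and 4672 in Acute-7d, and 2471.5 and 2543 in T_Dysf. Both rested conditions lay above T_Dysf, which lay above Effector, and Acute-2d and Acute-7d overlapped. *Cdkn1b* was 2.13-fold lower in T_Dysf than in Acute-2d (log2 difference -1.09, SE 0.12, adjusted p 0.00923). Against Acute-7d it was 1.92-fold lower in T_Dysf, with means of 2507 ± 50.3 and 4827 ± 219 (SD, n = 2), a log2 difference of -0.94 and an adjusted p of 0.0165, which passed the p but not the fold of 2. Effector was 2.52-fold lower than Acute-7d (adjusted p 0.0110) and 2.79-fold lower than Acute-2d (adjusted p 0.00825). The T_Dysf minus Effector log2 difference was 0.39, with an adjusted p of 0.0953.

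*Cdkn1a*, the gene of p21, lies at chr17:29090976-29100727 on the plus strand and is also a p53 target. The libraries held 959 and 1439 normalized counts in Effector, 1424 and 1666 in Acute-2d, 1383 and 1875 in Acute-7d, and 1036 and 1189.9 in T_Dysf. T_Dysf lay below both rested conditions and within the Effector range. No comparison called *Cdkn1a*, and the T_Dysf minus Acute-7d log2 difference was -0.54, with a 95% interval from -1.20 to 0.12 and an adjusted p of 0.269. The ratio of *Cdkn1a* to *Cdkn1b* within a library was 0.514 and 0.732 in Effector, 0.298 and 0.278 in Acute-2d, 0.278 and 0.401 in Acute-7d, and 0.419 and 0.468 in T_Dysf. The ratios were highest in Effector and next in T_Dysf with no overlap, and the exact permutation test gave p = 0.0286 and 0.0762 after adjustment. Per kb of transcript, *Cdkn1b* at 1048 normalized counts per kb was above *Cdkn1a* at 582 in T_Dysf, and at 2017 and 852 in Acute-7d.

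*Cdkn2c*, the gene of p18, lies at chr4:109660876-109667189 on the minus strand. Its normalized counts were 902 and 1312 in Effector, 458 and 483 in Acute-2d, 354 and 568 in Acute-7d, and 858 and 855 in T_Dysf. Effector and T_Dysf lay above both rested conditions, which overlapped. Effector was 2.42-fold higher than Acute-7d (log2 difference 1.28, adjusted p 0.0466), and the difference of 1.21 from Acute-2d had an adjusted p of 0.0513. The T_Dysf log2 differences were 0.93 from Acute-7d (adjusted p 0.120), 0.86 from Acute-2d (adjusted p 0.129) and -0.34 from Effector (adjusted p 0.470), and none was called. *Cdkn1b* was thus higher, and *Cdkn2c* lower, in both rested conditions than in Effector and T_Dysf, although no T_Dysf difference of *Cdkn2c* was called.

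**Figure D3:**
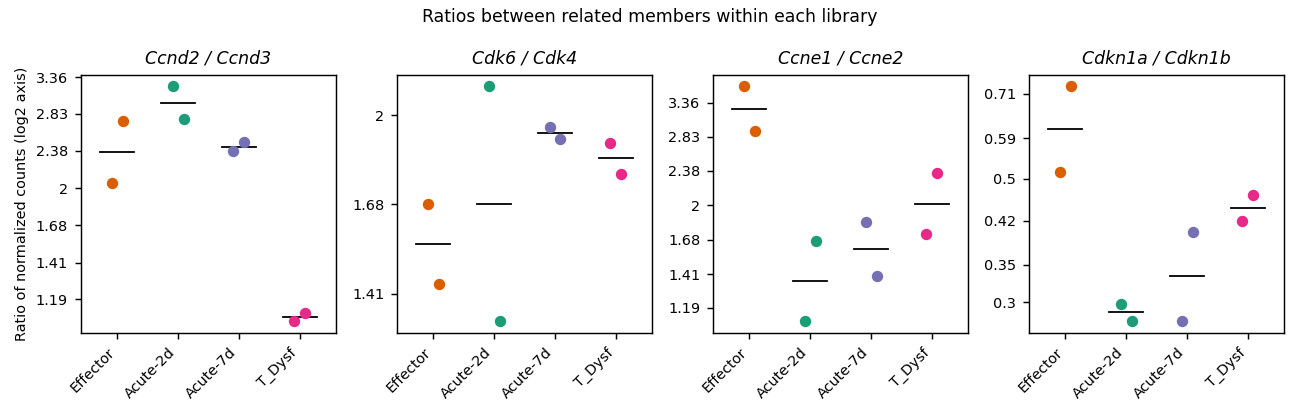
Within-library ratios of 4 pairs of related members on log2 axes, with 1 point for each of the 8 libraries and a bar at the condition mean on the log2 scale. The *Ccnd2* to *Ccnd3* ratios of T_Dysf, 1.08 and 1.11, sit below all others, and no ratio passed after adjustment over the 4 tests.

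Leaving out 1 library ended many calls, while 9 of 14 calls kept a fold of 2 in all 8 such fits and 0 reversed. A library of a condition outside a comparison cannot change its log2 difference. A call lost without such a library was lost through its adjusted p alone. All 3 calls of T_Dysf against Acute-7d ended when any 1 library of Acute-2d, Acute-7d or T_Dysf was left out, with log2 differences of -1.26 to -0.99 for *Ccnd2*, 1.29 to 1.78 for *Ccne1* and 0.87 to 1.25 for *Cdk2*, and highest adjusted p-values of 0.115, 0.197 and 0.186. The *Ccnd2* call against Acute-2d ended without either Acute-2d library (-1.16 and -1.11) or T_Dysf replicate 1 (-1.05), and the *Cdkn1b* call without Acute-2d replicate 2 (-0.93) or T_Dysf replicate 1 (-1.07). Against Effector, the *Ccnd2* call ended without Effector replicate 2 (-0.87) or either T_Dysf library (-0.94 and -1.11), and the *Ccne1* call in all fits but that without Effector replicate 1, at -1.66 to -1.24 where it ended and -2.02 where it stood. In Effector against Acute-7d, the *Ccne1*, *Cdk2* and *Cdkn1b* calls ended without Acute-7d replicate 1 (2.92, 1.84 and -1.29) and the *Cdkn2c* call in all 8 fits, at 0.94 to 1.62. In Effector against Acute-2d, the *Ccne1* call ended without Acute-2d replicate 1 (2.94) and the *Cdk2* call without either Acute-2d library (1.71 and 1.76), and the *Cdkn1b* call stood in all 8 fits. A fit without 1 library has fewer residual degrees of freedom, and the lone library of a condition is then assumed to vary like the others. With a term for the RESUB prefix, both T_Dysf against Acute-2d calls stood. Neither of these conditions has a library with the prefix, so the term could not change their log2 differences. Only the 2 libraries of Acute-7d set the size of the term. For T_Dysf against Acute-7d it therefore repeats the log2 differences found without Acute-7d replicate 1, and is not a separate check. For Effector against Acute-7d it repeats those found without Acute-7d replicate 2. The T_Dysf against Acute-7d calls were not made, at log2 differences of -1.26 for *Ccnd2* (adjusted p 0.0630), 1.29 for *Ccne1* (0.197) and 0.87 for *Cdk2* (0.183). With that term the T_Dysf against Effector differences were -1.30 for *Ccnd2* (adjusted p 0.116) and -2.12 for *Ccne1* (adjusted p 0.163), which were not called either. In Effector against Acute-7d the calls of *Ccne1* (3.41), *Cdk2* (2.22) and *Cdkn1b* (-1.38) stood with it and that of *Cdkn2c* (1.62, adjusted p 0.0554) ended. In Effector against Acute-2d the differences were 3.55 for *Ccne1*, 2.11 for *Cdk2* and -1.57 for *Cdkn1b*, each farther from 0 than without the term, with adjusted p-values of 0.0860, 0.0965 and 0.0818.

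Of 21 other genes of G1 control, all in the table, T_Dysf against Acute-7d called 1 higher, *Cdkn2b*, and 1 lower, *Myc*, at a median log2 difference of 0.41 against 0.02 over all genes with a mean of at least 50 normalized counts. Of all genes, 2.54% were called higher there and 3.03% lower. *Cdkn2b*, which encodes the INK4 inhibitor p15 and is a classical TGF-β target, was 53.9 and 58.2 normalized counts in Effector, 54.8 and 32.4 in Acute-2d, 63.6 and 63.6 in Acute-7d, and 188 and 249.99 in T_Dysf. Both T_Dysf libraries lay above all 6 others, and the log2 difference was 1.75 from Acute-7d (SE 0.30, adjusted p 0.0346), 2.34 from Acute-2d (adjusted p 0.0141) and 1.93 from Effector (adjusted p 0.0197). *Myc*, a growth factor-induced transcription factor, was 5540.3 and 6009 normalized counts in Effector, 15615 and 15287 in Acute-2d, 17721 and 11335 in Acute-7d, and 4537 and 4228 in T_Dysf. Its T_Dysf log2 difference was -1.69 from Acute-7d (adjusted p 0.0176) and -1.82 from Acute-2d (adjusted p 0.0121), and -0.40 from Effector with an adjusted p of 0.292. *Ccnd1*, the gene of the third D-type cyclin, had condition means of 31.8 to 42.8 normalized counts. *Rb1*, the retinoblastoma gene, was 753 and 919 normalized counts in Acute-7d and 1699 and 1413 in T_Dysf, a log2 difference of 0.90 with an adjusted p of 0.0440 that did not reach the fold of 2.

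Against Acute-2d, T_Dysf had 2 of the 21 genes called higher, *Cdkn2a* and *Cdkn2b*, and 1 lower, *Myc*. Against Effector it had 1 higher, *Cdkn2b*, and 2 lower, *E2f1* and *Skp2*. The shares of all genes called were 7.35% against Acute-2d and 9.22% against Effector. *E2f1*, an E2F factor, was 940.3 and 1298 normalized counts in Effector and 456 and 497 in T_Dysf, with a log2 difference of -1.21 (adjusted p 0.0490). *Skp2*, the ubiquitin ligase subunit that targets p27, was 242 and 347 in Effector and 102 and 123 in T_Dysf, with a log2 difference of -1.36 (adjusted p 0.0430). Effector had 6 genes called higher than Acute-7d, *Cdc25a*, *Cks1b*, *E2f1*, *E2f2*, *E2f3* and *Skp2*, and *Myc* called lower, and against Acute-2d the same 7 genes with *Cdkn2a* in addition. For Effector, 8.06% of all genes were called against Acute-7d and 8.78% against Acute-2d. Acute-7d against Acute-2d had 0 called in limma and 1 with an unadjusted p under 0.05, where 0.169% and 7.31% of all genes were.

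Of the 10 p53 targets listed beside *Cdkn1a*, 1 was called in T_Dysf against each other condition. The shares of all genes called there were 5.57% against Acute-7d, 7.35% against Acute-2d and 9.22% against Effector. In Effector against Acute-7d and against Acute-2d 2 were called, where 8.06% and 8.78% of all genes were. T_Dysf against Acute-7d called 1, *Aen*, an apoptosis-linked nuclease, higher by 1.13 on the log2 scale (adjusted p 0.0303), and the median log2 difference was -0.05. Against Acute-2d *Aen* was again the 1 called, at 1.17 (adjusted p 0.0226), and against Effector it was *Sesn2* at 1.25 (adjusted p 0.0346). In Effector against Acute-7d, *Phlda3* at -1.96 and *Trp53inp1* at -1.28 were called lower, both with an adjusted p of 0.0150, and against Acute-2d both were called lower again. Acute-7d against Acute-2d had 0 called in limma and 0 with an unadjusted p under 0.05, where 0.169% and 7.31% of all genes were.

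**Figure D4:**
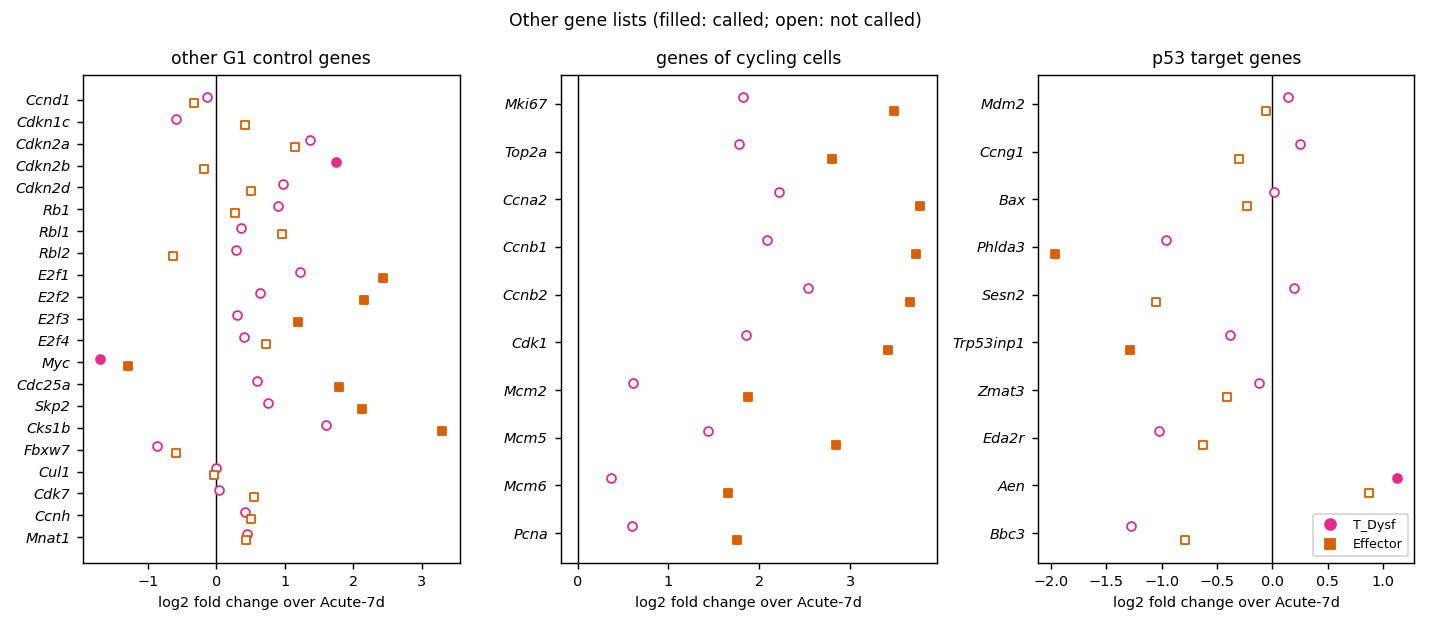
Log2 differences from Acute-7d of the other G1 control genes, the genes of cycling cells and the p53 targets, 1 row a gene, with circles for T_Dysf, squares for Effector and filled symbols for calls. The genes of cycling cells lie at a median of 1.80 in T_Dysf against Acute-7d with no filled circle and at 3.13 in Effector against Acute-7d, where all 10 squares are filled.

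The genes whose log2 values ran most like a member over the 8 libraries were ranked by Pearson correlation among 12018 genes with a mean of at least 50 normalized counts, as a description, since the libraries fall into clusters by condition. For *Ccnd2* they were *Gm4366* (r = 0.99), *Get1* (0.99) and *Poglut1* (0.98). *Poglut1* had condition means of 290.2 normalized counts in T_Dysf and 562 to 640.2 in the others. *Coq7*, *Sae1* and *Ppil1* were nearest to *Ccne1*, at r of 0.9975, 0.9955 and 0.9954, and *Xpnpep1*, *Ripk3* and *Rrm1* to *Cdk2*, at 0.9969, 0.9951 and 0.9947. *Rrm1*, a subunit of ribonucleotide reductase, had condition means of 6691 normalized counts in Effector and 2588 in T_Dysf, against 1246 in Acute-2d and 1091 in Acute-7d. For *Cdkn1b* they were *Fam102a* (0.9958), *Zfp28* (0.99) and *Hdac10* (0.99), and *Fam102a* had condition means of 5050.1 normalized counts in T_Dysf and 4031 in Effector, against 15448 in Acute-2d and 13344 in Acute-7d. *Ccne2* was nearest to *Diaph3*, *Smc2* and *Ttf2*, *Cdk4* to *Dclre1b*, *Srm* and *Ruvbl1*, and *Cdkn2c* to *D430020J02Rik*, *Cpsf2* and *Cdc5l*, all at 0.99. The remaining members had looser matches, with *Slc9a7* at 0.96 for *Ccnd3*, *Thap12* at 0.96 for *Cdk6* and *Plppr3* at 0.95 for *Cdkn1a*.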

How the data were processed

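Mouse RNA-seq of 8 libraries was analysed. Read alignment by the authors used STAR and the mm10 build, with quantification on RefSeq transcripts in Partek Flow. The deposited table holds a signal, read counts that the authors scaled by DESeq2 median ratios. The versions of STAR and DESeq2 and the use of strand are not given in the sources used here. Between 53.3% and 75.8% of values under 1000 reads were whole multiples of 1 read, within 0.02 reads, so no count model was used. Groups came from the labels.

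limma 3.58.1 in R 4.3.3 (lmFit, eBayes with trend) was fitted on log2(normalized count + 1) for all 24303 genes and 8 libraries with 4 condition means and 4 residual degrees of freedom, without a filter on low values. The fit was also run on simulated data with independent noise and no prefix or sex effect, which does not test its error rate in these data. A call needed a fold of 2 and a Benjamini-Hochberg adjusted p under 0.05. The 4 ratios were tested by exact permutation of the spread between the 4 conditions relative to that within them. That test has no direction and does not compare single conditions. By permutation, 2 libraries against 2 cannot pass 0.05 alone. Transcript lengths and positions came from GENCODE vM21, promoter windows from RefSeq GRCm38.p6. All members were named, and of the other lists the genes called and up to 4 others. Members, lists and tests were chosen with earlier results of these data known. Alternatives were a pseudocount of 10, a minimum mean of 50, 2 other scalings, fits of 2 groups, a replicate block, a RESUB term, adjusted p alone and leaving out each library. Counting error alone sets the floor of 3 reads.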

Additional observations from a re-analysis of the deposited data

How the results depend on the processing

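None of the 14 calls changed direction under any alternative run. The members called were 5 with a minimum mean of 50 in Effector against Acute-2d. By adjusted p alone they were 4 in T_Dysf against Effector, where 15.6% of all genes passed. For the other settings the share of all genes called is not given. A setting can change the calls of every gene, so these counts cannot be read as results about the members. Fits of the 2 groups alone called 0 in T_Dysf against Acute-7d, 0 in T_Dysf against Effector, 1 in Effector against Acute-7d and 0 in Effector against Acute-2d, with fewer residual degrees of freedom. The RESUB term called 0 in T_Dysf against Acute-7d, T_Dysf against Effector and Effector against Acute-2d, where the cause was not tested. It called 3 in Effector against Acute-7d. It also called 2 in T_Dysf against Acute-2d, where neither condition has the prefix and the log2 differences could not change. Of differences not called, *Ccne1* in T_Dysf against Acute-2d passed in 6 of 8 alternatives, *Cdkn2c* in Effector against Acute-2d in 5 and *Ccne2* in Effector against Acute-7d in 3. With a pseudocount of 10 the spread of the log2 *Ccne1* to *Ccne2* ratio between the highest and lowest condition was 1.26. Its exact permutation p was 0.0476, not adjusted over the 4 ratios, against 0.0571 in the main setting. Leaving out 1 library gave 0 to 3 members called in T_Dysf against Acute-7d, 0 to 3 against Acute-2d, 0 to 4 against Effector, 0 to 4 in Effector against Acute-7d, 1 to 4 in Effector against Acute-2d and 0 in Acute-7d against Acute-2d. That spread then ran from 1.34 to 1.56 for *Ccnd2* to *Ccnd3*, 1.03 to 1.55 for *Ccne1* to *Ccne2*, 0.20 to 0.53 for *Cdk6* to *Cdk4* and 0.84 to 1.35 for *Cdkn1a* to *Cdkn1b*.

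Some differences that were not called turned sign, and not all of them were near 0. In the main fit *Cdkn1a* in Effector against Acute-2d stood at -0.39 and *Ccne2* in Acute-7d against Acute-2d at -0.33. With equal totals the *Ccnd2* difference of Acute-7d from Acute-2d was 0.0058, and with quantile normalization 0.017, with 0.020 in Effector against Acute-7d and 0.037 in Effector against Acute-2d. With the RESUB term the differences were 0.12 for *Ccnd2*, 0.14 for *Ccne1*, 0.10 for *Ccne2* and 0.27 for *Cdkn2c* in Acute-7d against Acute-2d, -0.080 and -0.13 for *Ccnd3* in T_Dysf against Acute-7d and Effector, 0.039 for *Ccnd2* and 0.045 for *Ccnd3* in Effector against Acute-7d, and 0.16 for *Ccnd2* and 0.048 for *Cdkn1a* in Effector against Acute-2d. Leaving out 1 library turned 20 of 480 differences, all uncalled. In Acute-7d against Acute-2d these ran from -0.15 to 0.12 for *Ccnd2*, -0.35 to 0.14 for *Ccne1*, -0.77 to 0.10 for *Ccne2*, -0.029 to 0.11 for *Cdk4*, -0.024 to 0.50 for *Cdk6*, -0.15 to 0.28 for *Cdkn1a*, -0.31 to 0.015 for *Cdkn1b* and -0.41 to 0.27 for *Cdkn2c*. In Effector against Acute-7d they ran from -0.25 to 0.055 for *Ccnd2* and -0.17 to 0.045 for *Ccnd3*, and in Effector against Acute-2d from -0.26 to 0.043 for *Ccnd2*. For T_Dysf they ran from -0.080 to 0.13 for *Ccnd3* against Acute-7d, -0.35 to 0.18 for *Cdk6* against Acute-2d and -0.37 to 0.21 for *Cdkn1a* against Effector.

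Deviations of same-numbered libraries correlated at -0.199 to 0.197 over 6 pairs of conditions, and 2 pairs were over 0.1. The highest was for Acute-2d with T_Dysf, whose libraries all lack the RESUB prefix. In Acute-7d the replicates differ in prefix and sex, so these values cannot tell whether replicate numbers pair the libraries. With the replicate block, 2 members were called in T_Dysf against Acute-7d, *Ccnd2* and *Ccne1*, 3 against Acute-2d, 2 against Effector, 4 in Effector against Acute-7d, 4 in Effector against Acute-2d and 0 in Acute-7d against Acute-2d. The share of all genes called with the block is not given.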
